A study of Homo sapiens with 18 samples.

Results

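Syndecans and glypicans carry most of the heparan sulfate on the surface of animal cells, and SULF1 and SULF2 are the extracellular enzymes that edit it. The 10 genes described here are the 4 syndecans (SDC1, SDC2, SDC3 and SDC4), 4 glypicans (GPC1, GPC3, GPC4 and GPC6) and both heparan sulfatases (SULF1 and SULF2). They were chosen by symbol from 58336 gene identifiers in 3 count tables, and each symbol was found in every table. The measurements are RNA sequencing counts from 3 lines grown from Ewing sarcoma, a cancer of bone or soft tissue in children and young adults. Cells received siFLI1, a small interfering RNA that targets FLI1, or the negative control siNeg, with 3 libraries per group and 18 in all.

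The 6 groups were TC-32 with siNeg, TC-32 with siFLI1, TC-71 with siNeg, TC-71 with siFLI1, A673 with siNeg and A673 with siFLI1. All groups carry the EWSR1::FLI1 fusion, and siFLI1 also reaches the fusion transcript. Both RNAs were introduced by reverse transfection at 20 nM, so the control cells were transfected too. TC-32 and TC-71 were grown in RPMI 1640 and A673 in DMEM. The names of 12 columns carry 48 h without saying from which event, and the 6 A673 columns give no time. Which line the TC-32 and TC-71 columns belong to is known from the table names alone. The series text also lists ES-5838 cells and siERG, not analysed here. Each line is 1 established culture, and nothing in the labels says that replicates came from separate cultures, so p-values measure the spread between these libraries alone.

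A heparan sulfate proteoglycan is a core protein bearing long sulfated sugar chains that hold growth factors, morphogens and matrix proteins near their receptors. Syndecans cross the membrane and bind the cytoskeleton and signalling proteins through short tails, whereas glypicans are held by a lipid anchor. SULF1 and SULF2 remove 6-O-sulfate groups from finished chains outside the cell, which changes the ligands that the chains can hold. In Ewing sarcoma, EWSR1::FLI1 is the driver transcription factor, and it binds GGAA sequences, including long runs of them.

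Total counts per library were 24102487 to 33669271 in TC-32, 19685354 to 37234528 in TC-71 and 114564479 to 120993595 in A673. Levels are given as RPKM, counts divided by annotated exon length in kilobases and by the scaled library size. FLI1 fell in every line, and TC-32 kept 48.9% of the siNeg level, TC-71 35.9% and A673 23.6%. Of 8 markers of Ewing sarcoma cells, 8 reached 1 CPM (counts scaled to library size) in TC-32 and A673 and 7 in TC-71, where CD99 was listed at 0 in every library. CD99 is one of 45 genes that have a row for an X and a row for a Y copy, and 44 of these were at 0 in both rows in the TC-71 table, against 16 in TC-32 and 15 in A673. The TC-71 counts therefore say nothing of CD99, and the marker sums of that line lack it. No member is among the 45. The summed level of the 8 Ewing sarcoma markers was 1960 to 2340 CPM in the siNeg libraries of TC-32 and TC-71 and 2500 to 2580 CPM in those of A673. With siFLI1 it was 366 to 369 CPM in TC-32, 516 to 572 CPM in TC-71 and 858 to 863 CPM in A673. None of 5 blood cell markers reached 1 CPM in any group. The summed epithelial markers, carried by KRT8 and KRT18, went from 88.8 to 103 CPM up to 124 to 141 CPM in TC-32, from 159 CPM up to 408 to 422 CPM in TC-71 and from 294 to 316 CPM up to 371 to 416 CPM in A673. The 4 endothelial markers summed to 32.7 to 33.8 CPM with siNeg and at most 4.02 CPM with siFLI1 in TC-32, to at most 0.688 CPM in TC-71, and to 5.57 to 6.34 CPM with siNeg and 28.5 to 31.8 CPM with siFLI1 in A673. The part of these marker changes in the results below was not tested. In bulk RNA, fewer cells of a type and less RNA per cell cannot be told apart.

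Every member that could be tested was called higher after siFLI1, except SULF1 in TC-71, which was called lower. SULF2 in TC-71 and GPC3 in TC-32 and A673 had too few counts to test. A call means edgeR's quasi-likelihood test gave p under 0.05 after adjustment over all genes of that line. In TC-32, 9 of the 10 genes passed the low-count filter, and 9 were called higher and 0 lower, where 41.3% of the 16227 genes tested were called higher and 40.1% lower. The filter in TC-71 also kept 9 members, of which 8 went up and 1 down, where 36.8% of 17085 genes were called higher and 35% lower. For A673 all 9 members kept were called higher, where 35.6% of 18444 genes were higher and 35.4% lower. The tested members had a median log2 fold change of 1.13 (TC-32), 1.61 (TC-71) and 2.49 (A673), beside 0.02, 0.02 and -0.01 over all genes tested. With scaling by library size alone, the share of A673 calls that were higher went from 50.1% to 40.9% and the median over all genes went from -0.01 to -0.11, while no member changed direction in any line.

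**Figure D1:**
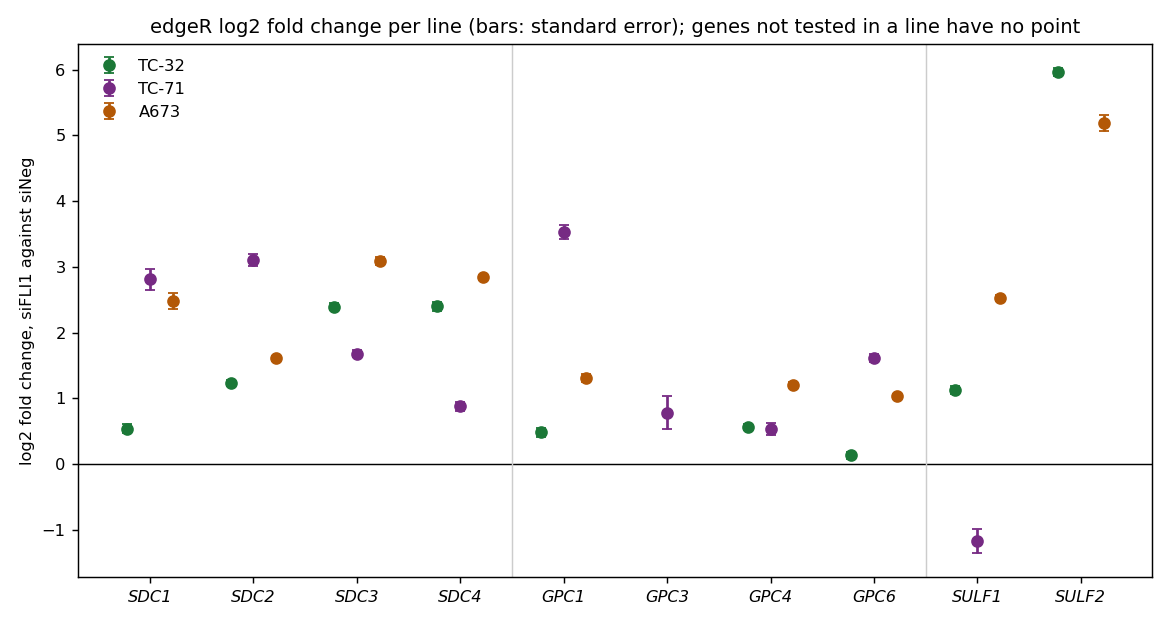
Log2 fold change of siFLI1 against siNeg for the 10 genes (horizontal axis) in TC-32, TC-71 and A673 (colours), with the standard error as bars and 0 as no change. Of the 27 points, the lone value below 0 is SULF1 in TC-71 at -1.17, and the largest are SULF2 in TC-32 at 5.96 and in A673 at 5.18; GPC3 in TC-32 and A673 and SULF2 in TC-71 were not tested and have no point.

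Promoter sequence from RefSeq (GRCh38.p14) was found for 7 of the 10 genes, in 11 windows running from 250 bases before to 50 after a start site. SULF1, SDC2 and GPC3 had none in the table. The 250 bases before the start are shown for SULF2, which had the largest fold change, for SDC3 and SDC4, which rose in all 3 lines, and for GPC1, which also rose in all 3 lines. GGAA, the core of ETS factor sites, is in capitals on either strand, so that TTCC marks a GGAA on the opposite strand. Each is written 5′ to 3′ on the strand of the gene. Positions are chr20:47786628-47786877 (minus strand) for SULF2, the first of its 4 windows, chr1:30908759-30909008 (minus strand) for SDC3, chr20:45348425-45348674 (minus strand) for SDC4 and chr2:240435413-240435662 (plus strand) for GPC1.
SULF2: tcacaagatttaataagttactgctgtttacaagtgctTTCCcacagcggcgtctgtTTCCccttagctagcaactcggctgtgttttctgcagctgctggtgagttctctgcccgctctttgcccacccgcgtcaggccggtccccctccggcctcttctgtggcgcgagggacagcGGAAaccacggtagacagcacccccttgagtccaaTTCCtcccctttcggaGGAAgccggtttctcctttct
SDC3: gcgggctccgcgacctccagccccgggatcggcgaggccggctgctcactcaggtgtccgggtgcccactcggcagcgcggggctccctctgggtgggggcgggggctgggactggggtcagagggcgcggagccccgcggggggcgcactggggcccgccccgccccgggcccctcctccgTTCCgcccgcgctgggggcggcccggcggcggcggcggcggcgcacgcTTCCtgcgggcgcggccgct
SDC4: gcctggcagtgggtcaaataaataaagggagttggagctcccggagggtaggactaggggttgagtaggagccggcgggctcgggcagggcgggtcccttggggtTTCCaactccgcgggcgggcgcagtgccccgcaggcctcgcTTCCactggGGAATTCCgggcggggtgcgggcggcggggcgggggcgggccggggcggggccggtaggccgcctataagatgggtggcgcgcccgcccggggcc
GPC1: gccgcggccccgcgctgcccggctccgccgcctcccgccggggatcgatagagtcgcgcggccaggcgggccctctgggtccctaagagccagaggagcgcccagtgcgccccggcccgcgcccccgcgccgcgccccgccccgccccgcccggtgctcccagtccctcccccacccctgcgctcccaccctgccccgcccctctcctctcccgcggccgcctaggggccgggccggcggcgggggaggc
The SULF2 stretch holds 5 matches, the SDC4 stretch 4, the SDC3 stretch 2 and the GPC1 stretch 0. The later SULF2 windows hold 5, 0 and 2 in the same 250 bases, and which start these cells use was not tested. An annotated exon covers all 250 bases of the second SULF2 stretch and 8 of the third. SDC1, GPC4 and GPC6 were also called higher in all 3 lines and are not shown. Their stretches hold 3 matches for GPC4, 2 for GPC6 and 2 in each SDC1 window. An annotated exon also covers 195 bases of the GPC6 stretch and 119 of the second SDC1 stretch.

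Over all 35116 RefSeq windows of the same 300 bases, 95.5% held GGAA on either strand, with a median of 3 matches. Counted over 300 bases, GPC6 and the second SDC1 window held 3 matches. The other member windows held as many as in their 250 bases, given above. Longer motifs were searched on both strands: GGAAGGAA (in 3.67% of all windows), CCGGAAGT, an ETS site (4.14%), GGAATG, the TEAD core (14.0%), and TGANTCA, the AP-1 site (7.71%). The first 3 of these contain GGAA. None of the 4 was found in the 11 windows of the members, which says only that these letters are not there. Runs of at least 4 consecutive GGAA units number 16606 in GRCh38, and 33.0% of the 20215 genes tested in any line had one within 50 kb of the start site, with a median distance of 87.5 kb. Among the 10 genes, 3 had one that near, at -4.13 kb for SDC1, -16.4 kb for GPC3 and 32.5 kb for SDC4, where minus means before the start. The longest nearest runs were 14 units at -55.8 kb from SULF1 and 13 units at 141.5 kb from GPC6. These positions describe the reference sequence and not binding.

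The sulfatases showed the largest change of the set and the lone reversal. SULF2 (ENSG00000196562.14; chromosome 20, 47656197 to 47786616, GENCODE 44 on GRCh38) measured 1.69, 2.00 and 2.01 RPKM in the TC-32 siNeg libraries. With siFLI1 it measured 114.0, 122.7 and 118.8 RPKM. The groups were far apart, with means differing 62.4-fold (log2 fold change 5.96, SE 0.0598, edgeR adjusted p = 2.63e-28). The same gene in A673 went from 0.0381, 0.0376 and 0.0266 RPKM to 1.19, 1.33 and 1.21 RPKM, a 36.5-fold difference from a much lower level (log2 fold change 5.18, SE 0.123, edgeR adjusted p = 1.56e-15). TC-71 held it near the limit of detection with either siRNA, and it was not tested there. Its TC-71 counts were 0, 0 and 5 with siNeg and 3, 2 and 0 with siFLI1, a ratio of 0.861 with a 95% exact interval of 0.198 to 3.74 that covers counting error only. A count of 0 in those libraries allows up to 3 counts, or 0.0116 to 0.0218 RPKM. An antisense gene overlaps 6.58% of the SULF2 exon bases, and whether counting used strand is not given in the sources used here.

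SULF1, the related sulfatase (ENSG00000137573.13; chromosome 8, 69466624 to 69660915), moved up in TC-32 and A673 and down in TC-71. In TC-32 it measured 2.80, 2.91 and 2.65 RPKM with siNeg and 5.95, 6.17 and 6.13 RPKM with siFLI1 (log2 fold change 1.13, SE 0.0598, edgeR adjusted p = 8.9e-15). In A673 it measured 1.12, 1.17 and 1.10 RPKM with siNeg and 6.65, 6.47 and 6.38 RPKM with siFLI1 (log2 fold change 2.52, SE 0.0460, edgeR adjusted p = 6.52e-17). All siFLI1 libraries of both lines lay above all siNeg libraries. In TC-71 the level was lower to begin with, at 0.309, 0.406 and 0.392 RPKM, and siFLI1 libraries held 0.183, 0.155 and 0.155 RPKM. That was 44.6% of the siNeg level, with no overlap, on 38 to 106 counts per library (log2 fold change -1.17, SE 0.182, edgeR adjusted p = 1.62e-06). Summed over both genes, sulfatase transcript went from 4.69 ± 0.213 to 124.6 ± 4.48 RPKM in TC-32 and from 1.17 ± 0.0371 to 7.74 ± 0.133 RPKM in A673 (SD, n = 3). In TC-71 the sum was 0.377 ± 0.0594 RPKM with siNeg and 0.174 ± 0.0239 RPKM with siFLI1 (SD, n = 3). SULF2 made up 40.5% of the sum in TC-32 with siNeg and 95.1% with siFLI1, whereas in A673 SULF1 was the main transcript with either siRNA, at 97.1% and 83.9%. With the longest annotated transcript as length the sums were 7.27 and 178.3 RPKM in TC-32, 0.618 and 0.284 RPKM in TC-71 and 1.91 and 12.4 RPKM in A673.

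**Figure D2:**
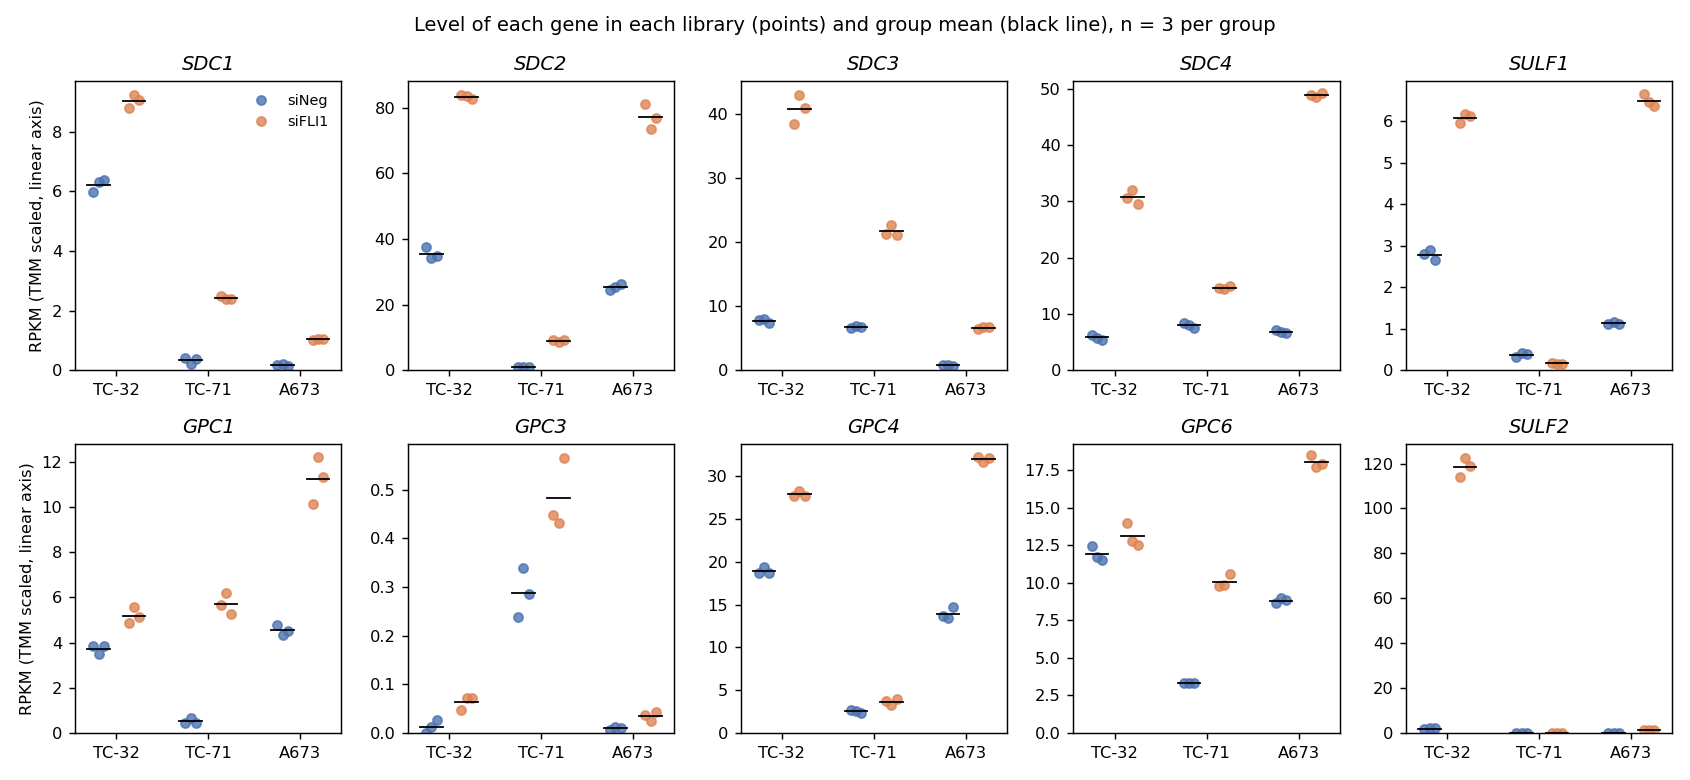
RPKM (vertical axis, linear, from 0, on a separate scale per gene) of each of the 10 genes in every library, for TC-32, TC-71 and A673 with siNeg (blue) and siFLI1 (orange); a black line is the mean of 3 libraries. The siFLI1 points of SULF2 in TC-32 stand at 114.0 to 122.7 RPKM, and SULF1 in TC-71 is the panel position where siFLI1 points lie below siNeg points.

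All 4 syndecans were called higher in all 3 lines. SDC2, the syndecan typical of mesenchymal cells (ENSG00000169439.11; chromosome 8, 96493813 to 96611790), was the most abundant of the 4 in TC-32 and A673. It measured 37.6, 34.1 and 34.6 RPKM with siNeg and 83.9, 83.6 and 82.5 RPKM with siFLI1 in TC-32. In A673 the values were 24.5, 25.2 and 26.3 RPKM with siNeg and 81.0, 73.5 and 76.9 RPKM with siFLI1. TC-71 held far less, at 1.11, 1.04 and 0.994 RPKM with siNeg and 9.07, 8.73 and 9.30 RPKM with siFLI1. The groups did not overlap in any line, and the folds were 2.35 (TC-32), 3.04 (A673) and 8.61 (TC-71). The log2 fold changes were 1.23 (SE 0.0441, edgeR adjusted p = 2.89e-18), 1.61 (SE 0.0431, adjusted p = 7.86e-15) and 3.11 (SE 0.0871, adjusted p = 3.94e-23) in that order.

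SDC3, a syndecan known from neural tissue and muscle (ENSG00000162512.15; chromosome 1, 30869466 to 30908758), rose by at least 2-fold in every line. The TC-32 libraries went from 7.85, 7.97 and 7.43 RPKM to 38.4, 43.1 and 40.9 RPKM (log2 fold change 2.40, SE 0.0510, edgeR adjusted p = 8.95e-23). The TC-71 libraries went from 6.65, 6.96 and 6.74 RPKM to 21.3, 22.7 and 21.1 RPKM (log2 fold change 1.68, SE 0.0497, edgeR adjusted p = 1.47e-22). The A673 libraries started lower, at 0.844, 0.782 and 0.723 RPKM, and reached 6.40, 6.81 and 6.73 RPKM (log2 fold change 3.08, SE 0.0588, edgeR adjusted p = 1.07e-16). A673 thus had the lowest SDC3 level with either siRNA and the largest fold, 8.49.

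SDC4, the syndecan of focal adhesions (ENSG00000124145.6; chromosome 20, 45325288 to 45348424), lay between 5.35 and 8.43 RPKM in all siNeg libraries and spread out with siFLI1. With siNeg it measured 6.31, 5.80 and 5.35 RPKM in TC-32, 8.43, 8.01 and 7.45 RPKM in TC-71, and 7.11, 6.75 and 6.60 RPKM in A673. With siFLI1 it measured 30.6, 32.1 and 29.5 RPKM in TC-32, 14.6, 14.4 and 14.9 RPKM in TC-71, and 48.8, 48.4 and 49.2 RPKM in A673. The rise was 5.28-fold for TC-32, 1.84-fold for TC-71 and 7.16-fold for A673. The log2 fold changes were 2.40 (SE 0.0667, edgeR adjusted p = 1.74e-20), 0.88 (SE 0.0669, adjusted p = 1.04e-12) and 2.84 (SE 0.0434, adjusted p = 8.01e-18). Levels in different lines come from separate quantifications, by RSEM for TC-32 and A673 and by Subread for TC-71 per the table names, so they are set side by side without a test.

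SDC1, the syndecan of epithelia and plasma cells (ENSG00000115884.10; chromosome 2, 20200797 to 20225433), was the least abundant syndecan in TC-71 and A673. In TC-32 it measured 5.97, 6.31 and 6.38 RPKM with siNeg and 8.79, 9.25 and 9.07 RPKM with siFLI1, a modest 1.45-fold rise (log2 fold change 0.54, SE 0.0650, edgeR adjusted p = 4.83e-08). The TC-71 level went from 0.401, 0.211 and 0.384 RPKM, on 15 to 40 counts, to 2.48, 2.38 and 2.40 RPKM (log2 fold change 2.81, SE 0.160, edgeR adjusted p = 1.01e-15). In A673 it went from 0.180, 0.222 and 0.156 RPKM to 1.02, 1.06 and 1.06 RPKM (log2 fold change 2.49, SE 0.122, edgeR adjusted p = 1.95e-11). The larger folds came in the 2 lines where SDC1 was low.

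The makeup of the syndecan pool differed between the siRNAs in each line. Summed syndecan transcript was 55.3 ± 2.17 RPKM with siNeg and 163.9 ± 3.54 RPKM with siFLI1 in TC-32, 16.1 ± 0.518 and 47.8 ± 0.361 RPKM in TC-71, and 33.1 ± 0.614 and 133.6 ± 3.68 RPKM in A673 (SD, n = 3). The siFLI1 sum was 2.97-fold, 2.96-fold and 4.03-fold that of siNeg. SDC2 took 64.2% ± 1.11 of the TC-32 sum with siNeg and 50.9% ± 1.05 with siFLI1, while SDC3 took 14.0% ± 0.589 and 24.9% ± 0.990 (SD, n = 3). In A673, SDC2 took 76.5% ± 1.41 and 57.7% ± 1.22, and SDC4 20.6% ± 1.15 and 36.5% ± 0.888 (SD, n = 3). TC-71 went the other way for SDC2, with 6.50% ± 0.164 and 18.9% ± 0.715, and SDC4 took 49.4% ± 1.48 and 30.6% ± 0.700 (SD, n = 3). These shares are descriptions without a test.

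**Figure D3:**
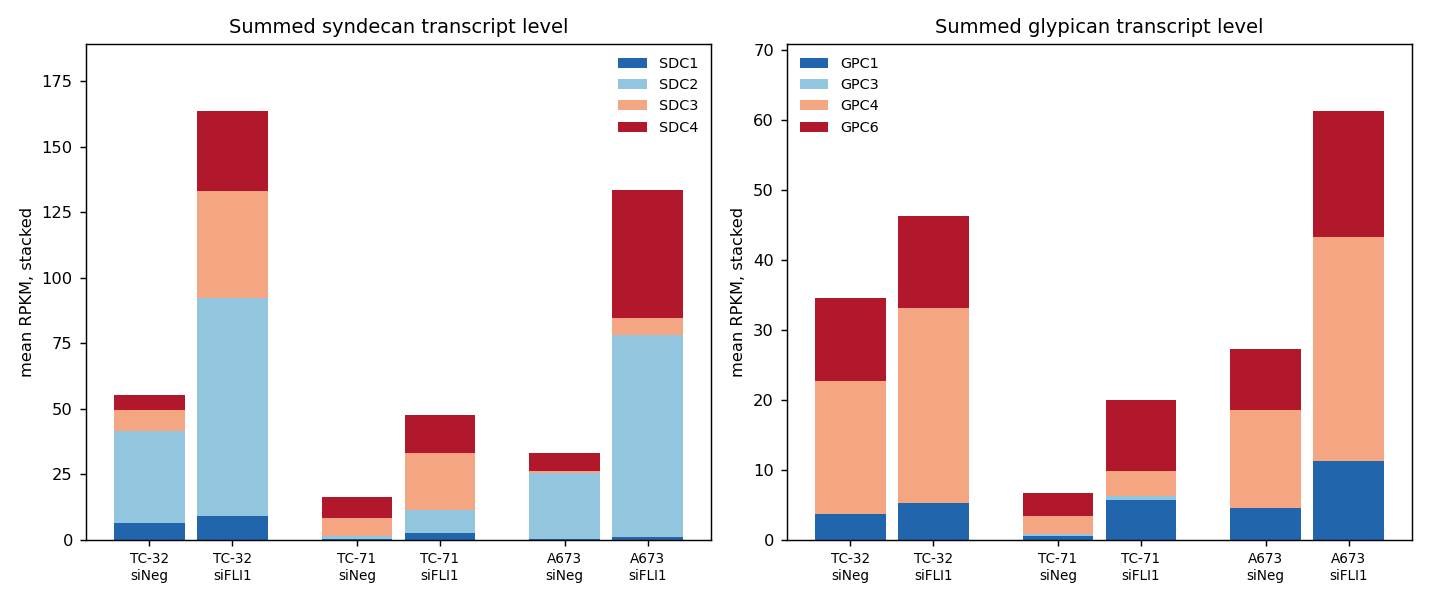
Mean RPKM (vertical axis) of the 4 syndecans (left) and the 4 glypicans described here (right), stacked to their sum, for each line with siNeg and siFLI1 (3 libraries each). The syndecan stack of TC-32 goes from 55.3 to 163.9 RPKM, and the glypican stack of TC-32 from 34.6 to 46.3 RPKM.

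Among the 4 glypicans described here, every gene and line with enough counts to test was also called higher, by 0.14 to 3.53 on the log2 scale. GPC4, a glypican of developing tissues (ENSG00000076716.8; chromosome X, 133300103 to 133415489), was the most abundant in TC-32 and A673. It measured 18.7, 19.3 and 18.7 RPKM with siNeg and 27.7, 28.3 and 27.7 RPKM with siFLI1 in TC-32, and 13.6, 13.4 and 14.7 RPKM with siNeg and 32.3, 31.7 and 32.1 RPKM with siFLI1 in A673. In TC-71 it measured 2.66, 2.62 and 2.31 RPKM with siNeg and 3.72, 3.24 and 3.96 RPKM with siFLI1. No groups overlapped, and the folds of 1.48 in TC-32 and 1.44 in TC-71 were smaller than the 2.30 in A673. Log2 fold changes were 0.56 (SE 0.0450, edgeR adjusted p = 2.94e-11) in TC-32, 0.53 (SE 0.0892, adjusted p = 4.49e-06) in TC-71 and 1.20 (SE 0.0415, adjusted p = 1.99e-13) in A673.

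GPC6, the closest relative of GPC4 (ENSG00000183098.10; chromosome 13, 93226807 to 94408020), had a small change in TC-32. Its siNeg libraries held 12.5, 11.7 and 11.5 RPKM and its siFLI1 libraries 14.0, 12.8 and 12.6 RPKM. The call (log2 fold change 0.14, SE 0.0527, edgeR adjusted p = 0.0201) was lost without siFLI1 replicate 1 (0.08, adjusted p = 0.147), without siNeg replicate 2 (0.12, adjusted p = 0.0969), without siNeg replicate 3 (0.10, adjusted p = 0.116) and with no low-count filter (0.12, adjusted p = 0.0506). The TC-71 level went from 3.32, 3.30 and 3.32 RPKM to 9.79, 9.89 and 10.6 RPKM (log2 fold change 1.61, SE 0.0587, edgeR adjusted p = 2.35e-20). In A673 it went from 8.68, 8.96 and 8.84 RPKM to 18.5, 17.8 and 17.9 RPKM (log2 fold change 1.03, SE 0.0380, edgeR adjusted p = 4.6e-13). Antisense genes overlap 7.18% of the GPC6 exon bases.

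GPC1, a glypican that binds fibroblast growth factors (ENSG00000063660.8; chromosome 2, 240435663 to 240468076), had its largest change in TC-71. There it rose from 0.433, 0.645 and 0.442 RPKM to 5.67, 6.20 and 5.28 RPKM, an 11.3-fold difference (log2 fold change 3.53, SE 0.109, edgeR adjusted p = 3.53e-21). In TC-32 the values were 3.87, 3.49 and 3.83 RPKM with siNeg and 4.85, 5.58 and 5.14 RPKM with siFLI1 (log2 fold change 0.48, SE 0.0696, edgeR adjusted p = 9.2e-07). In A673 they were 4.78, 4.35 and 4.51 RPKM with siNeg and 10.1, 12.2 and 11.3 RPKM with siFLI1 (log2 fold change 1.30, SE 0.0603, edgeR adjusted p = 8.96e-12). TC-71 was the lowest of the 3 with siNeg, and its siFLI1 values overlapped those of TC-32.

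GPC3, an inhibitor of hedgehog signalling that is best known as a marker of liver cancer and embryonal tumours (ENSG00000147257.13; chromosome X, 133535745 to 133987100), was close to the limit of detection. TC-71 held 0.238, 0.340 and 0.286 RPKM with siNeg, on 21 to 27 counts, and 0.449, 0.431 and 0.567 RPKM with siFLI1, on 36 to 69 counts. The groups did not overlap (log2 fold change 0.78, SE 0.249, edgeR adjusted p = 0.00612), but without siFLI1 replicate 3 the call was lost (0.63, adjusted p = 0.0595). In TC-32, 3 counts in all were found with siNeg and 19 with siFLI1, a ratio of 5.26 with a 95% exact interval of 1.55 to 27.8. In A673, 11 counts were found with siNeg and 39 with siFLI1, a ratio of 3.68 with an interval of 1.85 to 7.97. These intervals cover counting error only, and neither line was tested for GPC3 after the low-count filter.

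Summed over the 4 glypicans described here, transcript in TC-32 was 34.6 ± 0.469 RPKM with siNeg and 46.3 ± 0.710 RPKM with siFLI1, or 1.34-fold higher. GPC2 and GPC5 are not in these sums and shares. With siNeg and siFLI1, GPC2 stood at 3.70 and 2.38 RPKM in TC-32, 1.51 and 1.95 RPKM in TC-71 and 2.46 and 1.725 RPKM in A673. The sum over the 4 went from 6.64 ± 0.273 to 19.9 ± 0.412 RPKM in TC-71 and from 27.3 ± 0.684 to 61.4 ± 0.343 RPKM in A673 (SD, n = 3). In TC-71 the shares were GPC1 at 7.60% ± 1.53 with siNeg and 28.7% ± 2.76 with siFLI1, and GPC4 at 38.1% ± 1.85 and 18.3% ± 1.62 (SD, n = 3). In A673 they were GPC6 at 32.3% ± 1.04 and 29.4% ± 0.819 and GPC1 at 16.7% ± 0.853 and 18.3% ± 1.60 (SD, n = 3). The GPC1 share depends on the length used. With the longest annotated transcript in place of all exons it was 12.4% and 41.0% in TC-71, beside 41.3% for GPC6 with siFLI1, and 17.5% and 18.1% in TC-32 and 26.0% and 28.2% in A673. No test was run on the sums or the shares.

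Ordered by level, the 10 genes ranked differently in each line. With siNeg, TC-32 had the order SDC2, GPC4, GPC6, SDC3, SDC1, SDC4, GPC1, SULF1, SULF2 and GPC3, where the libraries of SDC1 and SDC4 overlapped and all other neighbours were apart. With siFLI1, SULF2 went from the ninth place to the first, at 118.5 RPKM, ahead of SDC2 at 83.4 RPKM. In TC-71 with siNeg, SDC4 and SDC3 led, followed by GPC6, GPC4, SDC2 and GPC1, and SULF1, SDC1 and GPC3 overlapped with their neighbours. With siFLI1, SDC3 led SDC4 there, GPC6 was next and SDC2 followed at 9.03 RPKM. In A673, SDC2 led with either siRNA, SDC4 went from the fourth place to the second, and SDC3 and SULF1 overlapped with siFLI1. Using the longest annotated transcript in place of all exons as length changed the RPKM of single genes by 1.00 to 1.75 times and exchanged some neighbours. It put GPC1 above SDC4 with siNeg in TC-32 (6.54 and 5.82 RPKM) and in A673 (7.97 and 6.82 RPKM), so that SDC4 started from the fifth place there. It also put SDC2 above GPC6 with siFLI1 in TC-71 (11.2 and 10.1 RPKM), GPC1 above GPC6 (19.7 and 18.1 RPKM) and SULF1 above SDC3 (10.7 and 7.35 RPKM) with siFLI1 in A673, SULF1 above SDC1 with siFLI1 in TC-32 (9.98 and 9.92 RPKM) and GPC3 above SDC1 with siNeg in TC-71 (0.404 and 0.364 RPKM).

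The size of the response differed between lines for most members. Each difference was tested as an interaction contrast over all 18 libraries in edgeR, adjusted over 19610 genes. Between TC-32 and A673, all 9 members tested in both lines differed, where 62.1% of all genes did. Between TC-32 and TC-71, 7 of 8 differed, where 53.6% of all genes did, and between A673 and TC-71, 7 of 8, where 51.6% of all genes did. The fit over all libraries also called SULF2 in both pairs with TC-71, or 8 of 10 members each, but SULF2 could not be tested in TC-71. The shares of all genes include genes too low to test in single lines, which the counts of 9 and 8 members leave out. Over all 10 members, the fit called 9 between TC-32 and A673. Library size alone moved the median of all genes for TC-32 minus A673 from 0.01 to 0.13 and the share of calls that were more positive in TC-32 from 48.1% to 55.5%, and changed no call of a member. TC-71 differs from the other lines also in its counting tool, and the 2 cannot be told apart. The fall of FLI1 differed between lines too, being smallest in TC-32. For FLI1, TC-32 minus A673 was 1.08 (edgeR adjusted p = 4.11e-14), TC-32 minus TC-71 0.43 (adjusted p = 6.67e-05) and A673 minus TC-71 -0.65 (adjusted p = 1.52e-08). A673 also differs in medium, in depth and in having no stated time. The part of these in the differences between lines was not tested.

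Against A673, TC-32 responded less for 8 members and more for SULF2. SDC1 showed the widest gap of the syndecans, with a difference of log2 fold changes (TC-32 minus A673) of -1.92 (SE 0.137, edgeR adjusted p = 2.17e-14). SULF1 followed at -1.37 (SE 0.0783, adjusted p = 5.95e-17), and SDC2 was the smallest called difference at -0.35 (SE 0.0606, adjusted p = 6.69e-06). SULF2 was the opposite, at 0.81 (SE 0.222, adjusted p = 0.00259).

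Differences that involve TC-71 went both ways. GPC1, SDC1, SDC2 and GPC6 responded more there than in TC-32, with TC-32 minus TC-71 at -3.05 (SE 0.143, edgeR adjusted p = 7.74e-18) for GPC1 and -1.88 (SE 0.0906, adjusted p = 1.16e-18) for SDC2. SDC3 and SDC4 responded less there than in TC-32, with SDC4 at 1.52 (SE 0.0860, adjusted p = 9.96e-17). SULF1 fell in TC-71 and rose in TC-32, a difference of 2.28 (SE 0.149, adjusted p = 4.09e-15). No difference that involves TC-71 is read for SULF2, since its fitted values rest on the 5 counts of TC-71 siNeg replicate 3. They were 6.16 against TC-32 and 5.35 against A673 with that library, and 1.47 (adjusted p = 0.884) and 0.66 (adjusted p = 0.824) without it. Between A673 and TC-71, SDC1 did not pass the threshold at -0.36 (SE 0.202, adjusted p = 0.141). GPC4 did not pass between TC-32 and TC-71 at 0.02 (SE 0.0882, adjusted p = 0.924), and GPC3 passed in no pair of lines (adjusted p 0.121 to 0.686).

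The enzymes and partners that make, sulfate, anchor and degrade these proteoglycans were described from 7 lists of 83 further genes. TC-32 had 69 of them tested, of which 48 were called higher, 13 lower and 8 neither. TC-71 had 68 tested, with 48 higher, 12 lower and 8 neither, and A673 had 68, with 49 higher, 9 lower and 10 neither. Values below are log2 fold changes for TC-32, TC-71 and A673 in that order. The shares of all genes called higher, given above, were 41.3%, 36.8% and 35.6%.

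**Figure D4:**
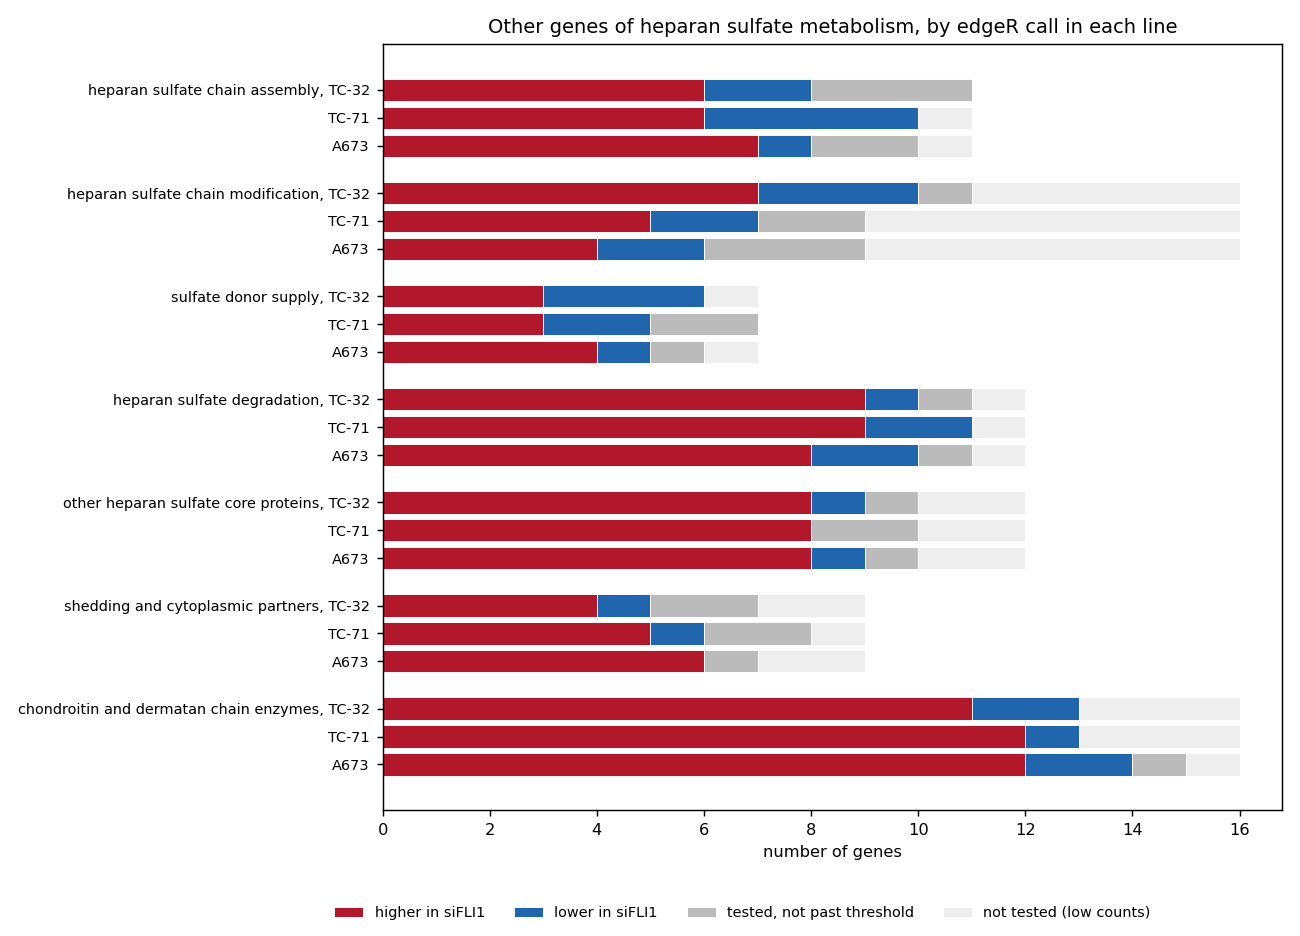
Number of genes (horizontal axis) in each of 7 lists of heparan and chondroitin sulfate metabolism that were higher, lower, not past the threshold or not tested in each line (edgeR adjusted p under 0.05, siFLI1 against siNeg). Other heparan sulfate core proteins had 8 of 12 genes higher in each line, and chondroitin and dermatan enzymes 11, 12 and 12 of 16.

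For assembly of the chain, 6 of 11 genes tested were higher in TC-32, 6 of 10 in TC-71 and 7 of 10 in A673, with 2, 4 and 1 lower and median log2 fold changes of 0.33, 0.18 and 0.41. The 2 subunits of the heparan sulfate polymerase rose in all lines, EXT1 by 1.55, 1.19 and 1.35 and EXT2 by 1.09, 0.35 and 0.47. EXTL1, a related glycosyltransferase, rose by 2.54, 3.59 and 1.23, from no more than 40 counts in any siNeg library. Its A673 call was lost without siFLI1 replicate 2 (0.99, adjusted p = 0.0571) and without siNeg replicate 3 (0.86, adjusted p = 0.0554). B4GALT7, which adds the first galactose of the linker to the core protein, rose by 0.33, 0.24 and 0.39.

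For sulfation of the chain, 7 of 11 tested were higher and 3 lower in TC-32, 5 of 9 higher and 2 lower in TC-71, and 4 of 9 higher and 2 lower in A673 (medians 0.46, 0.57 and 0.06). HS3ST4, which places the rare 3-O-sulfate group, fell in every line (-2.22, -1.26 and -3.20). Its level went from 3.47 to 0.742 RPKM in TC-32, from 39.6 to 16.5 RPKM in TC-71 and from 13.9 to 1.52 RPKM in A673. Of the other genes for this step, HS3ST3A1, HS3ST3B1 and HS3ST6 were called higher in TC-32 and were not tested in TC-71 or A673. They are named here after their values were seen. From at most 5.52 counts in any TC-32 siNeg library, they reached 0.183, 1.655 and 1.658 RPKM with siFLI1, in that order. NDST1, which starts sulfation of the chain at glucosamine, rose by 1.02, 1.43 and 1.45. NDST3 and NDST4 are named here after their values were seen. NDST4 was called lower in TC-32 (-2.43) and A673 (-1.60, from 9.61 to 3.17 RPKM) and was not called in TC-71 (-0.03, edgeR adjusted p = 0.786). NDST3 was called higher in TC-71 (3.09, from at most 15 counts with siNeg), was not called in A673 (0.06) and was not tested in TC-32. NDST2 rose by 0.82, 0.57 and 0.43, but another gene on its strand covers 82.9% of its exon bases, so its counts are uncertain. Its TC-71 call was lost with DESeq2 (0.57, adjusted p = 0.0737) and without siFLI1 replicate 1 (0.47, adjusted p = 0.0990), siFLI1 replicate 2 (0.50, adjusted p = 0.0958) or siNeg replicate 3 (0.38, adjusted p = 0.170). HS6ST2, which adds the 6-O-sulfate that the SULF enzymes remove, rose by 0.27, 0.94 and 1.63. HS6ST1, which adds the same group and is named here after its values were seen, rose in TC-32 (0.46, edgeR adjusted p = 4.73e-07, from 12.8 to 17.6 RPKM) and fell in TC-71 (-0.76, adjusted p = 6.36e-10, from 5.57 to 3.31 RPKM). In A673 it was not called at 15.6 RPKM with siNeg and 14.8 RPKM with siFLI1 (-0.08, adjusted p = 0.167), but was with library size alone (-0.18, adjusted p = 0.00399) and without siFLI1 replicate 2 (-0.12, adjusted p = 0.0319).

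For supply of sulfate, 3 of 6 tested were higher and 3 lower in TC-32, 3 of 7 higher and 2 lower in TC-71, and 4 of 6 higher and 1 lower in A673 (medians -0.05, -0.04 and 0.21). SLC26A2, which carries sulfate into the cell, fell to 28.0%, 75.9% and 15.4% of its siNeg RPKM. PAPSS2, which makes the activated sulfate, rose by 1.21, 3.68 and 0.12, and SLC35B2, which carries it into the Golgi, by 0.24, 0.31 and 0.39. The PAPSS2 call in A673 was lost with library size alone (0.01, adjusted p = 0.813), no low-count filter (0.11, adjusted p = 0.0855), the replicate block (0.12, adjusted p = 0.0980), and without siFLI1 replicate 2 (0.11, adjusted p = 0.0519), siNeg replicate 1 (0.10, adjusted p = 0.118) or siNeg replicate 3 (0.11, adjusted p = 0.128).

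For degradation of heparan sulfate and activation of the sulfatases, 9 of 11 tested were higher in TC-32, 9 of 11 in TC-71 and 8 of 11 in A673, with 1, 2 and 2 lower and medians of 1.20, 0.73 and 0.72. IDUA, the iduronidase, rose by 2.68, 1.49 and 1.53, with antisense genes over 13.2% of its exon bases, and HGSNAT, an acetyltransferase of the lysosome, by 1.96, 1.38 and 0.98. SUMF1, which activates sulfatases including SULF1 and SULF2, rose by 1.35, 0.83 and 0.83. ARSG, a lysosomal sulfatase, went in opposite directions (0.62, -1.14 and 1.13), and antisense genes overlap 14.8% of its exon bases. GUSB, named here after its values were seen, was called lower in every line (-0.73, -0.31 and -0.59). The counts of higher genes include IDS, but 75.9% of its exon bases are shared on the same strand, so its counts are uncertain.

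Other proteins that can carry heparan sulfate were higher for 8 of 10 tested in every line, with 1, 0 and 1 lower and medians of 2.03, 1.05 and 2.00. CD44, a hyaluronan receptor of which some splice forms carry heparan sulfate, went from 0.912 to 10.4 RPKM in TC-32 and from 0.349 to 32.1 RPKM in A673 (log2 fold changes 3.51 and 6.52). In TC-71, CD44 had 1 count in all with siNeg and 51 with siFLI1, a ratio of 43.9 with a 95% exact interval of 7.53 to 1770 that covers counting error only. NRP1, a co-receptor for semaphorins and VEGF, rose by 3.85, 3.00 and 2.88. TGFBR3, the co-receptor betaglycan, rose by 2.14, 1.79 and 2.15, and SPOCK1, a secreted testican, by 1.91, 1.63 and 3.19. GPC2, a further glypican named here after its values were seen, was called lower in TC-32 (-0.63) and A673 (-0.51) and higher in TC-71 (0.37). That TC-71 call was lost without siFLI1 replicate 2 (0.26, adjusted p = 0.111) and without siNeg replicate 1 (0.21, adjusted p = 0.169).

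Of the shedding enzymes and cytoplasmic partners, 4 of 7 tested were higher and 1 lower in TC-32, 5 of 8 higher and 1 lower in TC-71, and 6 of 7 higher and 0 lower in A673, with medians of 0.45, 0.45 and 0.62. The sheddases ADAM10 (0.78, 0.43 and 0.70) and ADAM17 (0.49, 0.64 and 0.62) rose in each line. SDCBP, or syntenin, which binds syndecan tails, rose by 0.74, 0.84 and 0.35, and GIPC1, which binds the tail of SDC4, by 0.45, 0.46 and 0.45. The chondroitin and dermatan sulfate enzymes, which act on the alternative chain that syndecans can also carry, were higher for 11 of 13, 12 of 13 and 12 of 15 genes tested and lower for 2, 1 and 2 (medians 1.07, 1.21 and 0.89). UST, a uronyl sulfotransferase, rose by 2.13, 1.90 and 2.43, and CHPF, a chondroitin polymerase subunit, by 2.37, 1.09 and 1.57. CHPF2, its relative, rose by 1.75, 1.67 and 1.41, and CSGALNACT2, which starts the chondroitin chain, by 0.99, 1.21 and 1.88. DSEL, an epimerase of dermatan sulfate, fell in TC-32 (-1.56) and A673 (-0.25) and rose in TC-71 (1.21). Antisense genes overlap 37.6% of the DSEL exon bases, 20.3% of CHPF2 and 11.7% of ADAM17.

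The genes whose response was most like that of each member were found by the Euclidean distance between the 3 log2 fold changes, among 11066 genes tested in all 3 lines with enough counts. For SDC2 the nearest were SOCS3 (distance 0.160) and FSTL3 (0.315). For SDC3 they were PTPRJ (0.353) and FAM114A1 (0.396), and for SDC4 they were SRPX (0.202) and PRKCA (0.283). SDC1 was nearest to TUFT1 (0.305) and MBNL1-AS1 (0.469). GPC1 was nearest to CABLES1 (0.438) and RGS4 (0.458), GPC6 to WNT3 (0.0922) and ENAH (0.0989), and GPC4 to SBDS (0.0568) and IMMP2L (0.0788). SULF1 had no close neighbour, with NCEH1 at 0.688 and PODXL at 0.921, whose log2 fold changes in TC-71 were -0.51 and -0.32. GPC3 and SULF2 were not tested in all 3 lines and have no such value.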

How the data were processed

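RNA was sequenced from 18 libraries. Per the labels' protocols, libraries were made with a stranded mRNA kit. The authors deposited expected counts for TC-32 and A673, attributed to RSEM by the table names, and counts for TC-71, attributed to Subread; neither is scaled to depth. Per the submitters' processing notes, cutadapt 4.4, STAR 2.7.3, featureCounts, Subread 2.0.3, limma 3.38.3 and GRCh38 were used, with roles not given, and the strand setting is not given in the sources used here.

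Expected counts were rounded. Each line was fitted alone in edgeR 4.0.16 (R 4.3.3) with filterByExpr by group, TMM factors and the robust quasi-likelihood F-test, and the difference between lines by interaction contrasts over 6 group means. Adjustment was by Benjamini-Hochberg over every gene tested, with 0.05 as threshold. Log2 fold changes use a prior count of 0.125. Each SE is the absolute log2 fold change without that prior count, divided by the square root of the F statistic. RPKM use TMM-scaled counts and the union of exons in GENCODE 44 (57754 of 58336 identifiers found), read with Python 3.11.15. Total counts of 19685354 to 120993595 per library set the precision, and a count of 0 allows up to 3 counts. Over 18 replicate pairs, Pearson correlations were at least 0.9915 and chi-square per degree of freedom at least 2.486, so no library was counted as a duplicate.

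The scaling was exchanged for RLE factors or library size alone. Low counts were left unfiltered or filtered at a mean of 10. DESeq2 1.42.0 and limma-voom (limma 3.58.1) replaced edgeR. Counts were also left unrounded, replicate numbers entered as a block, single libraries left out in turn, and lines compared from their 12 libraries alone. The 10 members, the 7 lists and the tests were chosen with earlier results of these data known. All members are named. Listed genes are named where called in the same direction in all lines (at most the 4 with the largest smallest change per list) or in opposite directions by at least 2-fold. For each member tested in all lines, the 2 nearest genes whose mean log2 CPM reached 1 in every line are named. A gene that this rule selects is not reported here.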

Additional observations from a re-analysis of the deposited data

Results flagged for a closer look

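For 25 pairs of a member and 2 lines with enough counts in both, a difference in response was tested. In edgeR's interaction contrast, 23 passed the threshold (highest adjusted p 0.00259). Among all 19610 genes of that fit, 62.1% passed for TC-32 minus A673, 53.6% for TC-32 minus TC-71 and 51.6% for A673 minus TC-71. A called difference between lines was thus common among all genes. Each value below is a difference of log2 fold changes. For TC-32 minus A673, the differences were -1.92 for SDC1, -0.347 for SDC2, -0.663 for SDC3, -0.413 for SDC4, -0.799 for GPC1, -0.614 for GPC4, -0.870 for GPC6, -1.37 for SULF1 and 0.812 for SULF2.

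For TC-32 minus TC-71, they were -2.28 for SDC1, -1.88 for SDC2, 0.711 for SDC3, 1.52 for SDC4, -3.05 for GPC1, -1.48 for GPC6 and 2.28 for SULF1. For A673 minus TC-71, they were -1.53 for SDC2, 1.37 for SDC3, 1.93 for SDC4, -2.26 for GPC1, 0.632 for GPC4, -0.608 for GPC6 and 3.66 for SULF1.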

How the results depend on the processing

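The number of members called stayed within 1.5 times its value under each of 122 alternatives. It ranged from 8 to 9 for TC-32, from 8 to 9 for TC-71 and from 9 to 10 for A673, where GPC3 entered some fits, and the number differing between lines was 9 for TC-32 and A673 and 7 to 8 for the other pairs. Of 369 alternative values for effects in single lines, 364 stayed on their side of the threshold, 5 lost the call (GPC6 in TC-32 and GPC3 in TC-71, given above) and 0 reversed. For 32 genes outside the members, 1295 of 1311 values stayed, 14 lost the call (NDST2 and GPC2 in TC-71, EXTL1 and PAPSS2 in A673, given above), 2 gained it (HS6ST1 in A673) and 0 reversed. Of 810 for differences between lines, 805 stayed, 2 lost the call (SULF2, given above) and 3 reversed. The reversals were all for GPC4 between TC-32 and TC-71, which was not called: leaving out single libraries gave -0.0652 to 0.0924, and the cause was not tested. No pairing by replicate number was seen, which does not show that the samples were unpaired. Over 9 same-numbered pairs, deviations from the group means correlated between -0.0784 and 0.0422, and 3 siNeg libraries correlated best with their own number. With the replicate block, 9 members were called in each line, as without it. Of the 32 other genes, only PAPSS2 in A673 lost its call (0.12, adjusted p 0.0980). HS3ST3A1, HS3ST3B1, HS3ST6, NDST3, NDST4, GUSB and IDS are not among these 32. Depth limits GPC3 in TC-32 and A673 and SULF2 in TC-71.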
